A study of Mus musculus with 4 samples.

Results

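Genes that mark or arm myeloid-derived suppressor cells were examined in mouse liver tumours. The set has 10 members of the 48526 genes in the count tables, chosen by symbol: S100a8, S100a9, Ly6c1, Ly6c2, Ly6g, Csf3r, Cd33, Arg2, Cybb and Ptgs2. All 10 were found, and 8 of them had enough reads to pass the filter on low counts. Ly6c2 and Ly6g did not. The tumours came from C57BL/6 mice given either Akkermansia muciniphila (Akk), a gut bacterium that lives on mucin, or phosphate-buffered saline (PBS). The design text states an oral dose of 5000000000 colony-forming units, with PBS for controls, over 2 weeks before a methionine- and choline-deficient (MCD) diet and through its 2 weeks. Both groups then received luciferase-labelled RIL-175 hepatoma cells in the liver. Giving of Akk stopped for 6 days after surgery and then resumed until the end. Every animal therefore carried the diet, the surgery and the implanted line, and the feeding is the difference between groups that the labels give. There are 2 libraries per group, called PBS 1, PBS 2, AKK 1 and AKK 2. The study's title names the immunosuppressive microenvironment of the tumour as its subject, and the comparison asks how these genes differ between the feedings.

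Myeloid-derived suppressor cells are immature or altered myeloid cells that restrain T cells in tumours. In mice they are sorted as CD11b+ cells in a monocytic form, high in Ly6C, and a granulocytic form, which carries Ly6G. They act by consuming arginine, by releasing reactive oxygen through the NADPH oxidase, and through prostaglandin E2, and they release the S100A8 and S100A9 proteins. Single genes of the set are also active in other cells. Ly6c1 is known from endothelial cells and lymphocytes, and Ptgs2 from epithelial, stromal and tumour cells. In bulk tissue, fewer cells of a type and less RNA per cell cannot be told apart.

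The libraries held 48912489 to 59027227 reads on genes. AKK 1 differed from the rest: 3.92% of its reads were mitochondrial, where the others had 1.64 to 2.33%, and 6.33% fell on ribosomal protein genes, where the others had 3.29 to 3.98%. The fold change of each tested member and each list median printed are therefore also given without AKK 1. Values are reads per gene, or CPM (reads relative to library size) scaled by the trimmed mean of M-values, and log2 fold changes are AKK minus PBS. The labels call the libraries biological replicates and do not state that each is a different mouse, so a p-value here covers the spread of these samples alone, which may be technical. The names of the deposited tables are built differently for PBS and for AKK. If that marks cohorts, feeding and cohort cannot be told apart.

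Ly6c1 and Ly6c2 are near-copies, which matters for how reads are assigned to them. In the GENCODE M21 transcripts the coding sequences of Ly6c1 and Ly6c2 had the same length of 396 bases and were 97.7% identical, with 9 mismatches. Ly6g was 78.3% identical to Ly6c1 over the 405 columns of the coding alignment, of which 9 held a gap. Of the windows of 1 read length (151 bases) along the Ly6c2 transcript, 5.65% also occurred in Ly6c1. A read there cannot be told apart without its mate, and the share for read pairs was not measured. The first 90 coding bases hold 6 of the 9 mismatches and are shown with the bases that differ between the pair in capitals.
Ly6c1: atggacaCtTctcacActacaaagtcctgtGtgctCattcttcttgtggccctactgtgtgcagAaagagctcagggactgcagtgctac
Ly6c2: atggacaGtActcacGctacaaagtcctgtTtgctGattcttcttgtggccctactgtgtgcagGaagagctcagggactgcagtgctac

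The upstream regions of the pair are shown because the genes differed widely in level in every tumour. Both are the 250 bases before the first start site that RefSeq lists (build GRCm38.p6, minus strand), at chr15:75048838-75049087 for Ly6c1 and chr15:75111972-75112221 for Ly6c2. Capitals mark matches on either strand to TATAAA, TTNNGNAA (the C/EBP pattern), TGANTCA (AP-1), TGACG (the core of the cyclic AMP element), GGGCGG (GC box) and GAGGAAG (a PU.1 core).
Ly6c1: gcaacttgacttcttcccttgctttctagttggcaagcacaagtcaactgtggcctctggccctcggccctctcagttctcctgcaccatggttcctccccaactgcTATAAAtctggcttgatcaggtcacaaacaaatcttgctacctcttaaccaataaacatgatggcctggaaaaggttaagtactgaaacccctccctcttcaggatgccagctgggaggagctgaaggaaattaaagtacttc
Ly6c2: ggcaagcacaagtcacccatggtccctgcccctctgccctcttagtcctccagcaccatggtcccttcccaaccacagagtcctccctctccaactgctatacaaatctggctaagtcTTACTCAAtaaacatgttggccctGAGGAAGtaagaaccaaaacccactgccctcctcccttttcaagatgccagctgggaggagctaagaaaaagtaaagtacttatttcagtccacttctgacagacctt
Ly6c1 held TATAAA, from 143 bases before the start site, a pattern found in 12.4% of the 32851 RefSeq regions of this length. Ly6c2 held the C/EBP pattern (36.9% of regions) and the PU.1 core (10.6%). A match is a description of letters, not of binding.

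Ly6 antigens are small surface proteins held by a lipid anchor, and antibodies to Ly6C and Ly6G define the monocytic and granulocytic forms. Ly6g had 0 reads in the order PBS 1, PBS 2, AKK 1 and AKK 2. The limit that a count of 0 allows, 3 reads, is worth 0.0514 to 0.0631 CPM in these libraries, so the marker of granulocytic cells was not detectable at this depth. Ly6c2, the Ly6C gene of inflammatory monocytes, had 1, 4, 32 and 5 reads in the same order. Only AKK 1 stood above the rest beyond counting error, with an exact Poisson 95% interval of 21.9 to 45.2 reads against upper bounds of 5.57, 10.2 and 11.7 reads in PBS 1, PBS 2 and AKK 2. AKK 2 and PBS 2 lay within each other's intervals. Counting intervals and floors here cover counting error only. The intervals are of reads and, here and below, are not scaled by library size.

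Ly6c1 was read far more often, at 253 and 477 reads under PBS and 1008 and 545 under AKK, which is 4.74 and 10.03 against 17.8 and 9.33 CPM. PBS 1 was lowest and AKK 1 highest, while PBS 2 lay above AKK 2, so the groups overlapped. The log2 fold change was 0.88 (SE 0.49, edgeR adjusted p = 0.430, n = 2 per group) and 0.34 without AKK 1. There were 253, 119, 31.5 and 109 Ly6c1 reads for each Ly6c2 read in PBS 1, PBS 2, AKK 1 and AKK 2, and the lowest of these ratios again belonged to AKK 1. Markers of endothelial cells, which can carry Ly6c1, lay lower instead. Of the 16 endothelial genes, all kept, 12 lay below both PBS libraries in both AKK libraries and 0 above. Over all genes, 24.7% lay below and 26.7% above. The endothelial genes summed to 448 and 304 CPM under PBS against 226 and 282 CPM under AKK. T cell markers, another known source, summed to 6.22 and 11.8 CPM in PBS and to 22.2 and 11.5 CPM under AKK, the same order of libraries as Ly6c1. The part of these cells in the Ly6c1 values was not tested.

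**Figure D1:**
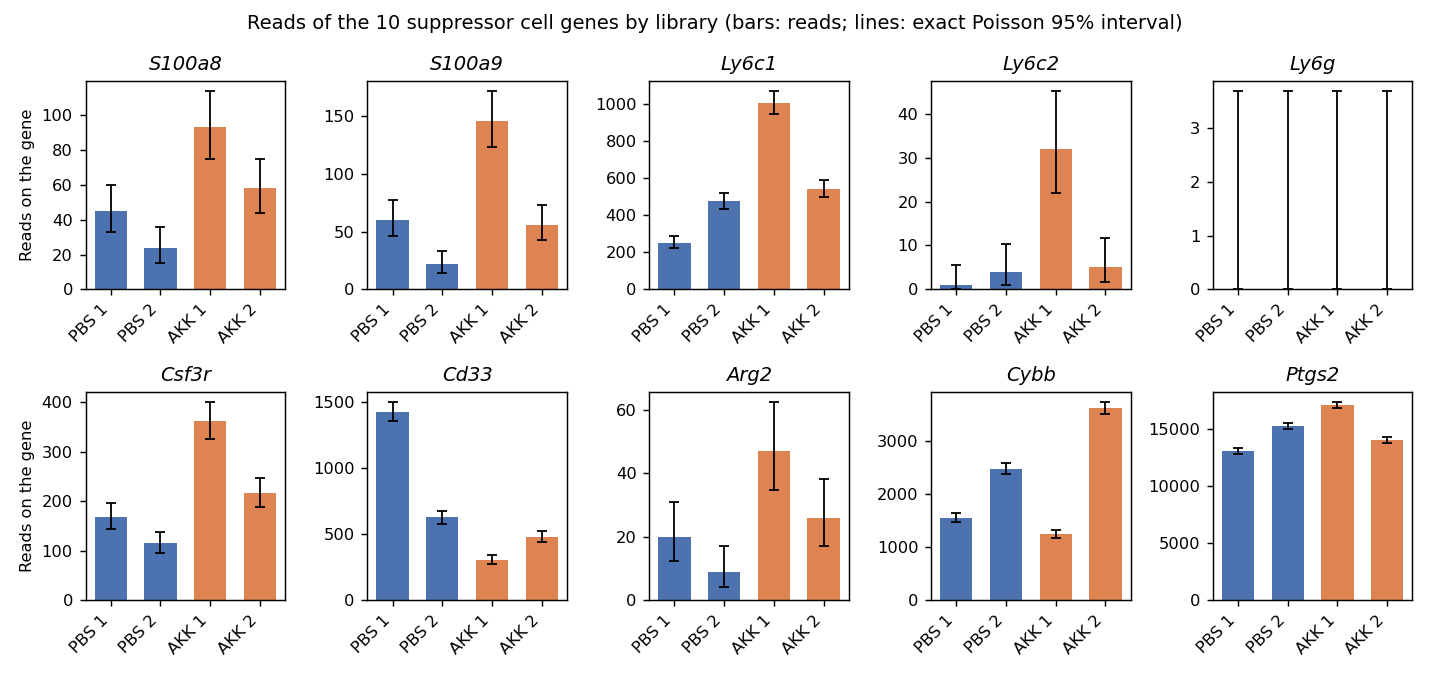
Reads on each of the 10 genes (vertical axes, linear from 0, a scale of its own per gene) in PBS 1, PBS 2 (blue), AKK 1 and AKK 2 (orange), with exact Poisson 95% intervals as lines. Ly6g is at 0 in each library, Ly6c2 reaches 32 reads in AKK 1 alone, and Cd33 is the gene with both AKK bars below both PBS bars.

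S100a8 and S100a9 encode the paired subunits of calprotectin, a calcium-binding alarmin that neutrophils and monocytes hold in large amounts. The genes are direct neighbours on chromosome 3 in RefSeq, with 0 genes between them. Neither held a window of 1 read length that occurs in another gene. Their upstream regions are shown with capitals as above. Both genes were highest in AKK 1 and lowest in PBS 2, an order held by 12.9% of all genes. The S100a8 stretch (157 bases, chr3:90668821-90668977, GRCm38.p6, plus strand) ends where GENCODE M21 places the first exon. The S100a9 stretch is the full 250 bases (chr3:90695722-90695971, minus strand).
S100a8: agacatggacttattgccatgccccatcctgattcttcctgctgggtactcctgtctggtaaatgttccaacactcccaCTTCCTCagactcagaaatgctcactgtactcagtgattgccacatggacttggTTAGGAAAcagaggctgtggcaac
S100a9: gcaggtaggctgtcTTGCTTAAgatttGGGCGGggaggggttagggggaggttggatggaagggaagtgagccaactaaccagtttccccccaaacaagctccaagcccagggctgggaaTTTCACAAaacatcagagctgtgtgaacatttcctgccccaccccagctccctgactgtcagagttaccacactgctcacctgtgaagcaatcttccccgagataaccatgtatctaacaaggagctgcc
The C/EBP pattern, bound by a factor family of granulocytes, occurred once upstream of S100a8 and at 2 places upstream of S100a9, against at least once in 36.9% of all regions. The S100a8 stretch also held the PU.1 core (10.6% of regions) and the S100a9 stretch the GC box (32.7%). These shares are for regions of 250 bases, longer than the 157 bases of S100a8. In the bases between that stretch and the RefSeq start, not shown, S100a8 held TATAAA (12.4% of regions), from 30 bases before the start.

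S100a8 had 45 and 24 reads under PBS and 93 and 58 under AKK, or 0.843 and 0.505 against 1.65 and 0.993 CPM. Both AKK libraries lay above both PBS libraries, but the intervals of PBS 1 (32.8 to 60.2 reads) and AKK 2 (44.0 to 75.0 reads) overlapped. Its log2 fold change of 0.96 (SE 0.55) missed the threshold (edgeR adjusted p = 0.441) and was 0.56 without AKK 1. S100a9 had 60 and 22 reads under PBS and 146 and 56 under AKK, or 1.12 and 0.463 against 2.58 and 0.959 CPM. Here PBS 1 exceeded AKK 2, so the groups overlapped, and the log2 fold change of 1.15 (SE 0.71, edgeR adjusted p = 0.465) was 0.27 without AKK 1. The libraries held 1.33, 0.917, 1.57 and 0.966 S100a9 reads per S100a8 read in PBS 1, PBS 2, AKK 1 and AKK 2, so the ratio was above 1 in PBS 1 and AKK 1 and just below it in PBS 2 and AKK 2. Both genes were thus detected at a low level in every tumour.

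Csf3r encodes the receptor of granulocyte colony-stimulating factor, which drives granulocyte production. It had 168 and 115 reads under PBS and 362 and 217 under AKK, or 3.15 and 2.42 against 6.40 and 3.72 CPM. Both AKK libraries lay above both PBS libraries, beyond the counting error of PBS 2 but not of PBS 1 and AKK 2, whose intervals met (144 to 195 against 189 to 248 reads). The log2 fold change was 0.86 (SE 0.44, edgeR adjusted p = 0.399), and 0.42 without AKK 1. Csf3r kept a steady ratio to S100a8, with 3.73, 4.79, 3.89 and 3.74 reads per S100a8 read in PBS 1, PBS 2, AKK 1 and AKK 2. Of the 9 genes of the colony-stimulating factor list, all kept, 0 passed in edgeR or DESeq2. At an unadjusted p under 0.05 there were 0 higher genes and 1 lower gene, Csf1r, the receptor of macrophage colony-stimulating factor, at 61.5 and 35.0 CPM under PBS against 23.5 and 28.1 CPM under AKK. The ligand Csf3 had 8, 17, 19 and 17 reads in the order PBS 1, PBS 2, AKK 1 and AKK 2. The list's median log2 fold change was 0.15, beside 0.02 over all 17479 genes kept. Leaving out AKK 1 gave a median of 0.035, leaving out PBS 2 gave 0.0065 and leaving out PBS 1 gave -0.19, with a change of sign.

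Other neutrophil markers were mixed. Of the 31 genes listed, which include S100a8, S100a9, Csf3r and Ly6g, 18 passed the filter, 6 of them above both PBS libraries, 3 below and 9 overlapping. Over all genes, 26.7% lay above and 24.7% below. The log2 fold change was positive in 13 and negative in 5, with a median of 0.62 that turned to -0.23, over 19 genes, without AKK 1. Several granule genes were near 0: Mpo had 0, 0, 1 and 0 reads, Elane 0, 0, 3 and 0, Ltf 1, 0, 2 and 3, and Ngp 0, 1, 0 and 0 in PBS 1, PBS 2, AKK 1 and AKK 2. The granule genes Prtn3 and Mmp8 had more, with 23, 8, 64 and 15 reads and 20, 8, 32 and 11 reads in the same order. The interleukin-8 receptor gene Cxcr1 and the stefin gene Stfa2 had 0 reads throughout. Cxcr2, the chemokine receptor that draws neutrophils, had 26 and 20 reads against 56 and 49 (log2 fold change 1.01, edgeR adjusted p = 0.384). Retnlg, a resistin-like gene of neutrophils, went the other way with 23 and 8 reads under PBS against 3 and 1 under AKK, and was below the filter.

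Among the kept genes of this list, Wfdc21, Lcn2 and Mmp9 had the largest log2 fold changes by size. Lcn2, an iron-chelating protein of granules and of inflamed epithelium and liver, lay at 2.08 and 0.273 CPM under PBS against 32.0 and 21.5 CPM under AKK (log2 fold change 4.49, edgeR adjusted p = 0.182, DESeq2 adjusted p = 1.66e-07). Wfdc21 had 0 and 0 reads in PBS against 86 and 23 in AKK, and passed the filter through its AKK reads only. The gelatinase gene Mmp9 lay at 71.3 and 15.3 CPM against 8.12 and 11.8 CPM. Hepatocyte markers were also higher: 12 of the 13 listed lay above both PBS libraries in both AKK libraries, where 26.7% of all genes lay. Their list's median log2 fold change was 5.91, and 4.19 without AKK 1. The 13 genes summed to 93.3 and 70.7 CPM under PBS against 539 and 174 CPM under AKK. Most of the PBS sums was Arg1, the gene that lay below, at 90.1 and 66.4 CPM under PBS against 63.9 and 49.8 CPM under AKK. Little was left in PBS for the other listed genes, most of which could pass the filter only through their AKK reads. Their place above both PBS libraries is therefore no support for a direction. The part of hepatocytes in the values of the neutrophil list was not tested. Without the 4 members, the neutrophil list summed to 121 and 39.5 CPM in PBS and 81.8 and 63.6 CPM under AKK, with the AKK libraries between the PBS libraries. Most of each sum was Mmp9 and Lcn2, given above, with Il1r2 and Il1b, so it says little of the other markers. Il1r2 lay at 23.1 and 12.7 CPM under PBS against 12.1 and 9.44 CPM under AKK, and Il1b at 13.4 and 4.90 against 17.0 and 14.4 CPM.

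**Figure D2:**
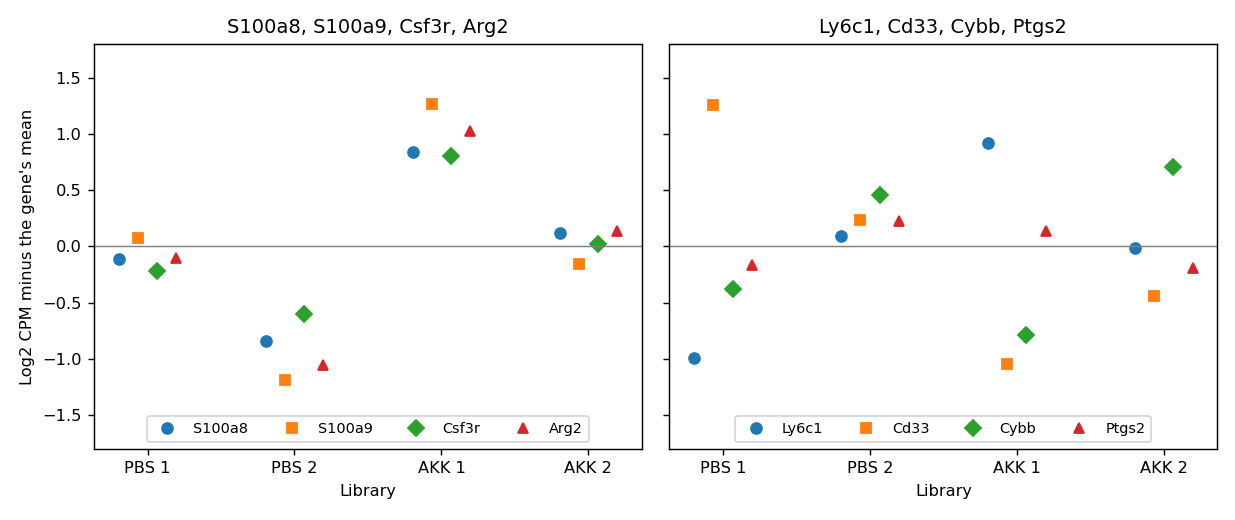
Log2 CPM of the 8 genes that passed the filter, less each gene's mean over the 4 libraries (vertical axis), by library (horizontal axis, with no order among replicates; points are set side by side for sight). S100a8, S100a9, Csf3r and Arg2 (left) are highest in AKK 1 and lowest in PBS 2, while Cd33 is highest in PBS 1 and Cybb in AKK 2 (right).

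Arg2 encodes the mitochondrial arginase, which splits arginine into ornithine and urea. It had 20 and 9 reads under PBS and 47 and 26 under AKK, or 0.375 and 0.189 against 0.832 and 0.445 CPM. Both AKK libraries lay above both PBS libraries, yet the interval of PBS 1 (12.2 to 30.9 reads) met that of AKK 2 (17.0 to 38.1 reads). Its log2 fold change was 1.16 (SE 0.64, edgeR adjusted p = 0.425) and 0.65 without AKK 1. The locus also gave reads on the other strand, 26 and 20 in PBS and 27 and 32 in AKK, which is 36.5 to 69.0% of its stranded reads. Among the other members with reads, that share was at most 0.822%. GENCODE M21 places Vti1b, a gene of vesicle transport, on the opposite strand with 285 shared exonic bases. Of the read-length windows of the Arg2 transcript, 10.6% occur in Vti1b. In the column that ignores strand, Arg2 had 16, 11, 29 and 18 reads in the order PBS 1, PBS 2, AKK 1 and AKK 2, and its log2 fold change was 0.63 (edgeR adjusted p = 0.601). The size of the Arg2 difference thus depended on the use of strand.

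The cytosolic arginase gene Arg1, which suppressor cells, macrophages and hepatocytes use, was read far more often. It lay at 90.1 and 66.4 CPM under PBS against 63.9 and 49.8 CPM under AKK (log2 fold change -0.46, edgeR adjusted p = 0.399). There were 240 and 351 Arg1 reads per Arg2 read in PBS against 76.9 and 112 in AKK. Of the 14 genes of arginine metabolism 13 were kept, of which edgeR called 0 and DESeq2 called 1 higher and 1 lower. The higher was Ass1, which rebuilds arginine from citrulline, at 1.72 and 1.26 CPM against 5.34 and 3.39 CPM (DESeq2 adjusted p = 0.0362). Ass1 is also on the hepatocyte list, as is Arg1. The lower was Oat, which turns ornithine toward proline and glutamate, at 10.3 and 9.67 CPM against 4.94 and 5.14 CPM (DESeq2 adjusted p = 0.0270). The arginine carriers Slc7a1 and Slc7a2 had log2 fold changes of -0.66 and -0.93 (edgeR adjusted p = 0.375 and 0.297). Nos2, the inducible nitric oxide synthase that shares the substrate, lay at 2.36 and 4.08 CPM against 4.35 and 4.54 CPM (adjusted p in edgeR = 0.613).

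With all 4 libraries, Cd33 had the largest log2 fold change by size of the 8 genes measured. Without PBS 1 its value of -0.95 was smaller in size than those of S100a9 (1.92), Arg2 (1.74), S100a8 (1.38) and Csf3r (1.06). Cd33 encodes a sialic acid-binding receptor of myeloid cells, and in humans CD33 is a staining marker of suppressor cells. Cd33 had 1424 and 626 reads under PBS and 305 and 480 under AKK, or 26.7 and 13.2 against 5.40 and 8.22 CPM. Both AKK libraries lay below both PBS libraries, and no Poisson interval of an AKK library met one of a PBS library. The PBS libraries themselves differed 2.03-fold. The log2 fold change was -1.55 (SE 0.43), a 2.93-fold lower level in AKK that missed the threshold in edgeR (unadjusted p = 0.0113, adjusted p = 0.234) and limma-voom (adjusted p = 0.283). Cd33 fell in DESeq2 (log2 fold change -1.56, adjusted p = 0.0160, lower in 2 of 2 AKK libraries). Its log2 fold change was -1.28 without AKK 1 and -0.95 without PBS 1, where edgeR did not call it (adjusted p = 0.635 and 0.523), and -1.997 without PBS 2, where edgeR did (adjusted p = 0.0466).

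Of the 8 members measured, edgeR called 0, as it called 0.00572% of all genes. At an unadjusted p under 0.05 it gave 1 member, Cd33, or 1 of 8, where the share over all genes was 15.3% (8.62% lower). DESeq2 called 1 member, again Cd33, against 5.12% of the genes for which it gave an adjusted p (3.04% lower), and limma-voom called 0 members and 0 genes. Groups did not overlap in 4 of the 8 members, 3 with AKK above (S100a8, Csf3r and Arg2) and 1 below (Cd33), beside 51.4% of all genes. These shares lie near the background or rest on 1 gene.

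**Figure D3:**
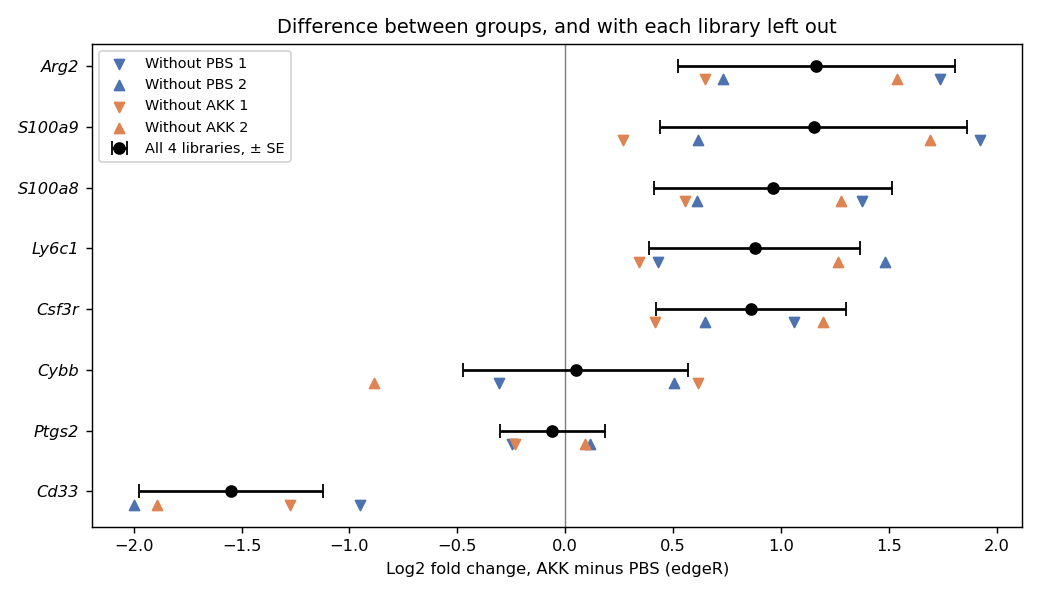
Log2 fold change, AKK minus PBS (horizontal axis), of the 8 genes that passed the filter, with the value from all 4 libraries as a black point ± SE and the value with each library left out as a triangle. S100a8, S100a9, Ly6c1, Csf3r and Arg2 stay positive and Cd33 negative in each of these fits, and Cybb and Ptgs2 change sign.

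The relatives of Cd33 were read from a list of 9 sialic acid-binding lectins (Siglecs), Cd33 among them. Of these 8 were kept, and 4 lay below both PBS libraries and 0 above, beside 24.7% and 26.7% of all genes. EdgeR called 0, with 3 lower and 0 higher at an unadjusted p under 0.05, and DESeq2 called 3 lower and 0 higher. Siglec15, a receptor of macrophages and osteoclasts, lay at 16.5 and 19.7 CPM under PBS against 3.59 and 6.85 CPM under AKK (log2 fold change -1.79, edgeR adjusted p = 0.188, DESeq2 adjusted p = 0.000738). Siglec1, or sialoadhesin, of resident macrophages lay at 8.27 and 6.92 CPM against 3.43 and 2.77 CPM (log2 fold change -1.29, edgeR adjusted p = 0.231, DESeq2 adjusted p = 0.0103). Siglece, the inhibitory Siglec of neutrophils and macrophages, showed no such gap, with 2.76 and 1.60 CPM against 2.35 and 2.06 CPM. Siglecg, of B cells, lay at 0.187 and 0.105 CPM in PBS, 1.06 CPM under AKK 1 and 0.171 CPM under AKK 2. The list's median log2 fold change was -0.14, and it was -0.52 without AKK 1 and -1.29 over the 5 genes that reached 1 CPM in 2 libraries.

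Macrophage markers are given beside Cd33, which these cells also carry. Of 15 listed genes 14 were kept, 8 of them below both PBS libraries, where 24.7% of all genes lay, and 1 above. EdgeR called 0 (1 higher and 4 lower at an unadjusted p under 0.05) and DESeq2 called 1 lower, Mpeg1. The gene above was Marco, a scavenger receptor, with 13 and 0 reads under PBS against 551 and 24 under AKK, which passed the filter through its AKK reads. The median log2 fold change was -0.41, -0.40 without AKK 1 and -0.18 without PBS 1. The list had a summed level of 1348 and 930 CPM under PBS against 923 and 861 CPM under AKK, so that PBS 2 and AKK 1 were nearly equal. Mpeg1, a pore-forming protein of phagocytes, lay at 80.3 and 78.2 CPM against 34.3 and 45.3 CPM. Per Mpeg1 read there were 0.332 Cd33 reads in PBS 1 and 0.168, 0.157 and 0.181 in PBS 2, AKK 1 and AKK 2, so on this scale PBS 1 stood apart from the other 3. Per Csf1r read the values were 0.434 and 0.376 in PBS against 0.229 and 0.293 in AKK, with no overlap. The part of macrophage number in the Cd33 values was not tested. Monocyte markers were mixed, with 5 of 20 kept genes above both PBS libraries and 6 below, beside 26.7% and 24.7% of all genes. Cd14, the lipopolysaccharide co-receptor, lay at 17.1 and 19.8 CPM against 40.9 and 30.3 CPM (DESeq2 adjusted p = 0.0367), and Ms4a4c at 0.825 and 1.09 against 3.24 and 1.59 CPM (adjusted p in edgeR = 0.327). Chil3, a chitinase-like protein of monocytes and of macrophages under type 2 stimulation, lay at 5.30 and 0.883 CPM against 0.283 and 0.325 CPM. The transglutaminase gene F13a1 lay at 11.2 and 3.93 CPM against 1.95 and 1.56 CPM. As with Cd33, PBS 1 was the highest library for both Chil3 and F13a1, and DESeq2 called both (adjusted p = 0.00602 and 0.00801) where edgeR did not (both adjusted p = 0.235).

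Cybb encodes gp91phox, the membrane core of the phagocyte NADPH oxidase, which makes superoxide. It had 1560 and 2487 reads under PBS and 1250 and 3632 under AKK, or 29.2 and 52.3 against 22.1 and 62.2 CPM. AKK 2 was highest and AKK 1 lowest, so the 2.81-fold spread within AKK enclosed both PBS libraries. The log2 fold change was 0.05 (SE 0.52, edgeR adjusted p = 0.972), 0.62 without AKK 1 and -0.89 without AKK 2. The partner subunits Cyba and Ncf1 did not share this pattern. Cyba, the p22phox chain that pairs with it, lay at 63.5 and 57.9 CPM under PBS against 97.3 and 62.8 CPM under AKK, and there were 0.460, 0.903, 0.227 and 0.991 Cybb reads per Cyba read in PBS 1, PBS 2, AKK 1 and AKK 2. Ncf1, a cytosolic subunit, lay at 13.6 and 8.92 CPM against 10.9 and 10.02 CPM. Of the 14 oxidase genes 10 were kept. EdgeR and DESeq2 called 0, with 1 lower gene and 0 higher at an unadjusted p under 0.05. That gene was Nox4, an oxidase of mesenchymal and epithelial cells, which lay at 11.1 CPM in PBS 1 and at 1.56, 1.13 and 1.46 CPM in PBS 2, AKK 1 and AKK 2.

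Ptgs2 encodes cyclooxygenase-2, the inducible enzyme that starts prostaglandin synthesis. It had 13036 and 15226 reads under PBS and 17090 and 13987 under AKK, or 244 and 320 against 302 and 240 CPM. The groups overlapped and the 4 libraries differed at most 1.34-fold, the smallest spread of the 9 members with reads. Its log2 fold change was -0.06 (SE 0.25, edgeR adjusted p = 0.924) and -0.23 without AKK 1. Of 13 genes of prostaglandin E2 synthesis, transport, breakdown and reception, 12 were kept and edgeR and DESeq2 called 0 (0 at an unadjusted p under 0.05). The synthase Ptges lay at 41.5 and 53.2 CPM under PBS against 81.1 and 39.6 CPM under AKK, and Ptges2 at 12.8 and 12.6 against 17.2 and 17.6 CPM (adjusted p in edgeR = 0.389). Hpgd, which breaks prostaglandins down, had 13 and 6 reads against 49 and 21 (edgeR adjusted p = 0.334). The prostaglandin carrier Slco2a1 stayed between 305 and 364 CPM in the 4 libraries. There were 8.37 and 13.9 Ptgs2 reads per read of the constitutive gene Ptgs1 in PBS against 7.71 and 10.2 in AKK.

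Per kilobase of exon in GENCODE M21, Ptgs2 was the most abundant of the set by far, with a mean of 60.4 CPM per kilobase (52.3 to 69.9 over the libraries). Next came Cybb at 7.14 (3.81 to 10.7), Ly6c1 at 6.25 (2.83 to 10.6), S100a9 at 2.46 (0.886 to 4.95), Cd33 at 1.72 (0.694 to 3.43), S100a8 at 1.44 (0.727 to 2.37) and Csf3r at 1.09 CPM per kilobase (0.670 to 1.77). Arg2 followed at 0.322 (0.133 to 0.582), Ly6c2 at 0.0689 (0.00684 to 0.207) and Ly6g at 0. Ranges of neighbours in this order overlapped except between Ptgs2 and Cybb, between Csf3r and Arg2, and between Ly6c2 and Ly6g. The files name no annotation release, so lengths may differ from those of the authors' gene models.

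The other Ly6 genes gave a wider view of that family. Of 27 listed 25 were in the tables, 8 passed the filter, and 15 had at most 10 reads in each library. Ly6e, which interferon induces in many cells, lay at 136 and 156 CPM under PBS against 271 and 251 CPM under AKK (log2 fold change 0.84, edgeR adjusted p = 0.199, DESeq2 adjusted p = 0.0158). Ly6a, or Sca-1, the direct neighbour of Ly6c1, lay at 18.9 and 58.4 against 116 and 71.9 CPM, with PBS 1 lowest and AKK 1 highest as for Ly6c1 (log2 fold change 1.28, edgeR adjusted p = 0.336). Ly6d, of epithelium and early lymphocytes, had 8 and 1 reads against 223 and 73, and passed the filter through its AKK reads, so its place among the genes above is no support for a direction. Gpihbp1, which holds lipoprotein lipase on capillaries, lay lower, at 5.29 and 6.29 against 2.42 and 2.004 CPM (DESeq2 adjusted p = 0.00982). The 8 genes had a median log2 fold change of 0.86 (0.41 without AKK 1 and 1.39, over 10 genes, without AKK 2). Of the 8, 4 lay above both PBS libraries and 2 below, beside 26.7% and 24.7% of all genes.

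**Figure D4:**
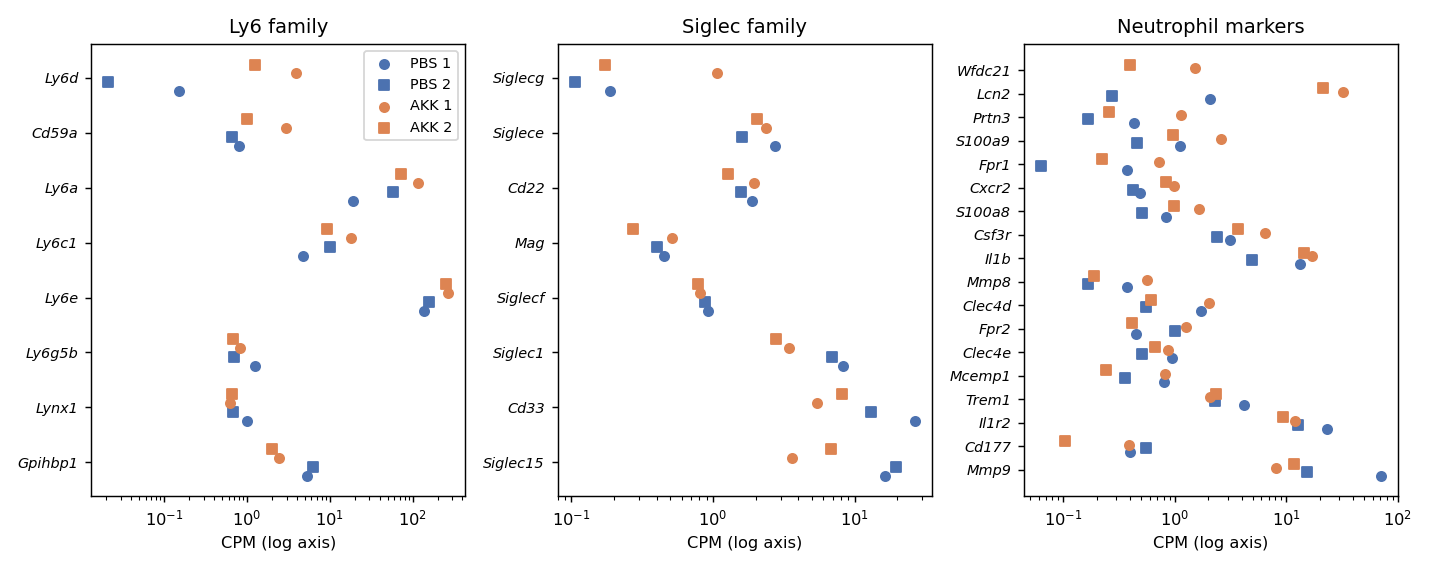
CPM (horizontal log axes) in PBS 1 and PBS 2 (blue circles and squares) and AKK 1 and AKK 2 (orange circles and squares) of the genes that passed the filter in the Ly6 family, the Siglec family and the neutrophil list, ordered by log2 fold change. Libraries at 0 reads are not drawn (Wfdc21 in both PBS libraries). Siglec15, Cd33 and Siglec1 have both AKK points left of both PBS points, and Lcn2 and Ly6d have them to the right.

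Of 21 listed S100 genes and alarmin receptors, S100a8 and S100a9 among them, 19 were kept. EdgeR called 0 (3 higher and 1 lower at an unadjusted p under 0.05) and DESeq2 called 1 higher and 1 lower. They had 7 genes above both PBS libraries and 3 below, beside 26.7% and 24.7% of all genes. Their median log2 fold change was 0.47, and 0.076 without AKK 1. The calcium-binding gene S100a6 was the most abundant, at 1198 and 1502 CPM against 2161 and 1378 CPM. S100a16 lay at 81.4 and 109 against 201 and 140 CPM (log2 fold change 0.84, edgeR adjusted p = 0.256), and S100a14, of epithelia, had 14 and 24 reads against 203 and 55 (edgeR adjusted p = 0.257). Tlr4, the receptor through which the S100A8 and S100A9 proteins signal, lay lower, at 13.1 and 12.99 against 8.33 and 10.2 CPM (adjusted p in edgeR = 0.415). Cd36, a scavenger receptor that binds them with fatty acids, lay at 4.54 and 3.22 against 1.47 and 0.617 CPM (DESeq2 adjusted p = 0.0286).

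Factors that recruit or programme suppressor cells were read from 3 further lists, in which edgeR called 0 genes. At an unadjusted p under 0.05 the chemokine list had 1 higher and 0 lower, the effector list 3 and 1, and the transcription factor list 0 and 3. DESeq2 called 1 higher in the first, 2 higher and 1 lower in the second and 0 in the last. Slc27a2, with 0 reads in both PBS libraries, passed the filter through its AKK reads and is 1 of the higher effector genes in both counts. Among 17 chemokines and receptors 16 were kept, 4 above both PBS libraries and 1 below. Over all genes, to be set beside each of the 3 lists, 26.7% lay above and 24.7% below. The monocyte chemokine Ccl2 lay at 4.12 and 4.86 CPM against 16.7 and 7.76 CPM (adjusted p in edgeR = 0.251, DESeq2 adjusted p = 0.0387) and its receptor Ccr2 at 3.24 and 1.91 against 5.47 and 3.89 CPM (adjusted p in edgeR = 0.409). The neutrophil chemokine genes Cxcl1, Cxcl2, Cxcl3, Cxcl5 and Ppbp all overlapped between the groups, with log2 fold changes of -0.81, -0.041, -0.53, 0.36 and -0.49. Among 23 kept suppressor effectors 6 lay above and 5 below. Il1rn, the interleukin-1 receptor antagonist, lay at 14.4 and 29.5 against 66.1 and 73.0 CPM (log2 fold change 1.66, edgeR adjusted p = 0.188, DESeq2 adjusted p = 0.00154). Olr1, the LOX-1 receptor that marks granulocytic suppressor cells in humans, lay at 4.35 and 2.90 against 6.32 and 12.5 CPM (adjusted p in edgeR = 0.277). Slc27a2, a fatty acid carrier of suppressor cells and hepatocytes, had 0 and 0 reads against 532 and 81, beside the hepatocyte markers above. Entpd1, or CD39, which degrades extracellular ATP, lay at 15.6 and 14.8 against 5.71 and 7.84 CPM (DESeq2 adjusted p = 0.00982). Among 20 kept myeloid transcription factors 2 lay above and 9 below. Gfi1, a repressor needed for neutrophil development, had 163 and 77 reads against 59 and 48 (edgeR adjusted p = 0.318), and Cebpb lay at 38.8 and 64.9 against 117 and 53.7 CPM (adjusted p in edgeR = 0.449). Cebpe, of late granulocyte development, had 1, 1, 10 and 1 reads in the order PBS 1, PBS 2, AKK 1 and AKK 2.

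**Figure D5:**
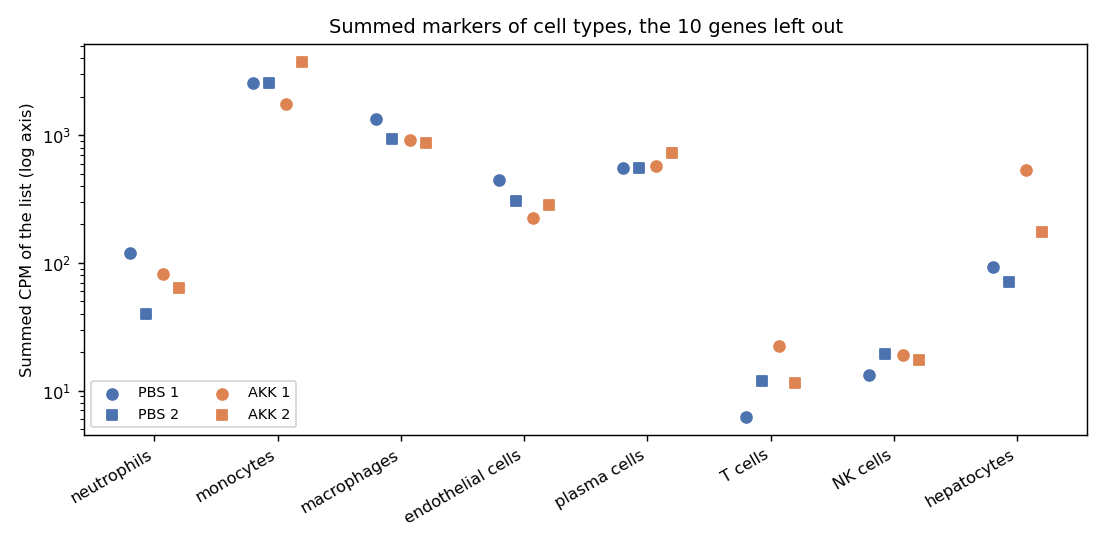
Summed CPM (vertical log axis) of 8 lists of cell type markers in PBS 1 and PBS 2 (blue) and AKK 1 and AKK 2 (orange), with the 10 suppressor cell genes left out. Hepatocyte markers are higher in both AKK libraries (539 and 174 against 93.3 and 70.7 CPM). Arg1 makes up most of their PBS sums (90.1 and 66.4 CPM). Endothelial markers are lower, and macrophage markers nearly meet (930 CPM in PBS 2, 923 CPM in AKK 1). Neutrophil markers overlap, and most of their sums is Mmp9, Il1r2, Il1b and Lcn2.

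The members fell into different profiles over the 4 libraries. Likeness was measured as the Euclidean distance between log2 CPM values, each less the gene's mean, over 4 libraries that share depth and make-up, so it is a description only. S100a8 lay at a distance of 0.281 from Arg2, 0.288 from Csf3r and 0.640 from S100a9, and of 2.63 from Cd33. All 4 of S100a8, S100a9, Csf3r and Arg2 were highest in AKK 1 and lowest in PBS 2, an order held by 12.9% of all genes. The closest protein-coding genes to Csf3r were Cd72 (0.0658), the mitochondrial gene mt-Nd1 (0.0746) and Smim26 (0.113), and the share of mitochondrial reads was itself highest in AKK 1 and lowest in PBS 2. The closest to S100a8 were Dennd1c (0.1002), Cand2 (0.129) and Nr1h3 (0.141). The closest to Cd33 were Pde7b (0.120), Cacna1c (0.140) and Npr3 (0.156), and to Ly6c1 they were Isoc2b (0.0691), the MHC class Ib gene H2-T23 (0.134) and Dpf1 (0.151). For Cybb they were Itga1 (0.202), Lama5 (0.248) and Krt80 (0.309).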

How the data were processed

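Total RNA of mouse liver tumours was sequenced as pairs of 151 bp reads, per the labels' protocols. The authors deposited raw read counts per gene for 2 PBS and 2 AKK libraries, in the layout of STAR's gene counts. RSEM 1.2.31 is listed with STAR 2.5.2 in the submitters' processing notes. Build and annotation: not given in the sources used here. The column of the gene's own strand, with 95.4 to 96.2% of stranded reads, was used. The 4 summary rows, 27.6 to 31.4% of all entries, were left out. Symbols matched 48058 of 48526 identifiers.

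AKK was compared with PBS by edgeR 4.0.16 in R 4.3.3 (legacy quasi-likelihood test, two-sided, trimmed mean of M-values, filterByExpr, prior count 0.125, group as the only term). Benjamini-Hochberg adjustment at 0.05 ran over the 17479 genes kept, and standard errors were derived from F. DESeq2 1.42.0, limma-voom (limma 3.58.1), other scalings, filters, the unstranded column, a replicate block, a threshold of 0.1 and each library left out were alternatives. The tests were also run on simulated counts as a check of the code, which is no support for any result here. The 10 members and 20 lists were chosen with earlier results of these data known. The genes named are the members, up to 4 genes of smallest p per list and the 3 closest profiles per member (mean log2 CPM of at least 1). All others were chosen after their values were seen. Sequences are from RefSeq (promoters of 9 members; the table holds none for Arg2) and GENCODE M21.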

Additional observations from a re-analysis of the deposited data

How the results depend on the processing

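With 2 libraries per group, the number of genes called depended on the test and on the genes tested. EdgeR called 1 of 17479 genes, and 3 with upper-quartile scaling or a threshold of 0.1, 631 of 28148 without a filter on low counts, 878 in DESeq2, 0 in limma-voom and 0 to 324 with a library left out (279 without PBS 1, 324 without PBS 2 and 0 without AKK 1 or AKK 2). Among listed genes edgeR called 1 of 255 (Fgb), 2 with upper-quartile scaling or a threshold of 0.1, 31 of 293 without a filter, 43 in DESeq2, 0 in limma-voom and 0 to 22 with a library left out. Members called went from 0 to 1 without a filter (Cd33, adjusted p = 0.0464) and in DESeq2, and were 0 to 1 with a library left out. The replicate block gave 209 genes, 18 listed genes and 0 members. Same-numbered libraries deviated with a correlation of -0.00821 over genes. With 2 libraries per group this is a single value, so it cannot decide whether the numbers pair the libraries.

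Cd33, S100a8, S100a9, Ly6c1, Csf3r and Arg2 kept their direction under every alternative that gave a value. Cybb turned to -0.069 in limma-voom and -0.075 with the replicate block, and ranged from -0.89 to 0.62 with a library left out. Ptgs2 turned to 0.0057 with upper-quartile scaling and ranged from -0.24 to 0.12 with a library left out. The cause was not tested. Ly6c2 entered 4 alternatives, with log2 fold changes of 1.91 to 3.93 and edgeR adjusted p of 0.193 to 0.774. Medians of lists often moved when a library was left out, and the report gives these values. Depth limits what can be said of Ly6c2 (1 to 32 reads) and Arg2 (9 to 47 reads). Of Ly6g, with 0 reads, it allows only an upper limit.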
